A study of Mus musculus with 12 samples.

Results

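Peaks of the histone variant H2A.Z in mouse nucleus accumbens were compared between a cocaine history followed by saline and a first cocaine exposure. The peak list of cocaine-then-saline samples (CS, which the labels call withdrawal) was set against the list of saline-then-cocaine samples (SC, which they call acute). Chromosomes 1 to 19 were used. These hold 22584 SC peaks and 6238 CS peaks, 28822 of the 59069 regions in the series. Peaks counted as shared when they overlapped by at least 1 bp. A gene counted as a promoter gene of a list when the middle of a peak that the authors assigned to it lay within 1000 bp of its transcription start site (TSS). That gave 12583 SC promoter genes and 4311 CS promoter genes. An SC promoter gene is called held when a CS promoter peak carries the same gene name.

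The series comprises 12 samples in 4 conditions of 3, and each condition joins a first and a second treatment. Besides SC and CS these are saline then saline (SS) and cocaine then cocaine (CC), the latter called challenge, and both serve here only to annotate SC and CS genes. The labels give the tissue as brain and the cell type as nucleus accumbens, and no dose, interval, strain, sex, age or batch. Chromatin was immunoprecipitated with an antibody to H2A.Z and sequenced, and total H3, also profiled, was not analysed here.

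Each condition has 1 deposited peak list without values per sample. No spread between samples and no test between conditions is therefore possible, and the 95% exact binomial (Clopper-Pearson) intervals in parentheses express counting error alone. Fold enrichment is the authors' ratio of a peak over background and ranks peaks within 1 list only. The lists differ in kind. SC peaks had a median width of 730 bp and covered 17.6 Mb, while CS peaks had a median width of 109 bp and covered 0.800 Mb. A q-value of 1e-05 or lower was reached by 97.9% of SC peaks and by 16.3% of CS peaks. Libraries, peak calling and treatment cannot be told apart as sources of these differences, which touch every share below.

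H2A.Z replaces histone H2A in nucleosomes that flank the start sites of genes, and it is deposited by the SRCAP and EP400 complexes and removed with the help of the chaperone ANP32E. In neurons its exchange has been tied to activity-dependent transcription and memory. The nucleus accumbens, a part of the ventral striatum central to reward, consists mostly of medium spiny neurons that carry D1 or D2 dopamine receptors. A peak shows where the variant sits and is not a measure of expression.

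Promoter sequences show the kinds of promoter that the comparison separates. The letters are RefSeq's for assembly GRCm38.p6, the 250 bases before the annotated start site of each gene, read 5′ to 3′ on the gene's strand. The first set shows where narrow CS peaks lie. Its capitals mark bases inside the CS peak, and each gene was chosen as the one with the strongest list value in its class whose CS peak lies wholly in the window. Cdca7l (chr12:117843611-117843860, + strand), a nuclear protein that interacts with Myc, stands for the strongest SC promoters. Bcl7b (chr5:135168122-135168371, + strand), a subunit of BAF chromatin remodellers, comes from the next group down. Zpr1 (chr9:46272814-46273063, + strand), a zinc finger protein, is a held promoter of middle strength that carries the ETS-family motif CCGGAAGT. Rasa4 (chr5:136083666-136083915, + strand), a GTPase activator of Ras, has a CS peak, no SC peak and an SS peak.

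Cdca7l: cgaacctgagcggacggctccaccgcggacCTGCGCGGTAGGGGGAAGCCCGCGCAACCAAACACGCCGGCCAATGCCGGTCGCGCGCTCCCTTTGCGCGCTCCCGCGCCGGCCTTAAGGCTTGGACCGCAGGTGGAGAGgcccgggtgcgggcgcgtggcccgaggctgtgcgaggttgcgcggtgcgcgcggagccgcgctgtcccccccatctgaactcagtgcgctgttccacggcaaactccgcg
Bcl7b: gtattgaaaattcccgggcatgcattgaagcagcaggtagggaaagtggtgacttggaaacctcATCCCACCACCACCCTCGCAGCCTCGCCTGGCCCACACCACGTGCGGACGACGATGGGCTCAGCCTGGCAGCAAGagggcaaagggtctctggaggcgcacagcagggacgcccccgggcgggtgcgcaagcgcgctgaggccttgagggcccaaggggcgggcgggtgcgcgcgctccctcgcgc
Zpr1: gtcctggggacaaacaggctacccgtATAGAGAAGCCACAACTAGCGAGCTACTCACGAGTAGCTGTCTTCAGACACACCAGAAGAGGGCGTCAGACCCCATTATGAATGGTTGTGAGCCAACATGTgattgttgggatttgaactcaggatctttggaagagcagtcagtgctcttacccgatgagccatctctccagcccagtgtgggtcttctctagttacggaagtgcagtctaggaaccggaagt
Rasa4: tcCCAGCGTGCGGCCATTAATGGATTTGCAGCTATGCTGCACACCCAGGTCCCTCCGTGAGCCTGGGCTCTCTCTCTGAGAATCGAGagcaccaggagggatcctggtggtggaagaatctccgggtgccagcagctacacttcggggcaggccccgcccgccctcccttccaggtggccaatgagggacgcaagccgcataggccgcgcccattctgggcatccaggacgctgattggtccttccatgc

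The CS peak takes up 110 of the 250 bases in Cdca7l, 75 in Bcl7b, 101 in Zpr1 and 85 in Rasa4, whereas the SC peak of the first 3 genes spans the whole window. In Zpr1 the ETS motif lies at the last 8 bases of the window, outside the CS peak. A second set shows base composition, with every CpG in capitals. Lrrc59 (chr11:94629527-94629776, + strand), encoding a protein of the endoplasmic reticulum, and Xpot (chr10:121626333-121626582, - strand), the nuclear exporter of transfer RNAs, are the strongest SC promoters of their groups without a CS peak whose window lies inside the SC peak. Pdcl (chr2:37359333-37359582, - strand), encoding a phosducin-like chaperone cofactor, is the least GC-rich held promoter of middle strength.

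Lrrc59: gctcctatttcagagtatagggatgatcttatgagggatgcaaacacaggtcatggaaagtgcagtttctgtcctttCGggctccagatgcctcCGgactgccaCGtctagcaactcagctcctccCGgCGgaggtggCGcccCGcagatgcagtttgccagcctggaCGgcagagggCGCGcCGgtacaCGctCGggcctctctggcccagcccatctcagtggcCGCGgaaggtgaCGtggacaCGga
Xpot: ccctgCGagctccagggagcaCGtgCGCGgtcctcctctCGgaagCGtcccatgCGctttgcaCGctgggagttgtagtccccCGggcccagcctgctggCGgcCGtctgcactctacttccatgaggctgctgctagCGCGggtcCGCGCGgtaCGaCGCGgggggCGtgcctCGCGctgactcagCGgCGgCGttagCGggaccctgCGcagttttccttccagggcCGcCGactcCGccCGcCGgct
Pdcl: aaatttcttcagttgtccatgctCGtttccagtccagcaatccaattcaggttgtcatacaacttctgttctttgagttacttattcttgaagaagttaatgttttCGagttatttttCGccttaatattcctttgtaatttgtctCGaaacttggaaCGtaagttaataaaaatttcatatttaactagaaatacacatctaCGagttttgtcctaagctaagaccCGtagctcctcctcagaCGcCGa

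The window of Lrrc59 has 17 CpG and a GC content of 61.6%, that of Xpot has 32 CpG and 71.6%, and that of Pdcl has 9 CpG and 35.6%.

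Most CS peaks stood on an SC peak, while most SC peaks had no CS peak. Of the 6238 CS peaks, 5482 (87.9%, 87.0 to 88.7) overlapped an SC peak. Of the 22584 SC peaks, 4650 (20.6%, 20.1 to 21.1) were overlapped. With both lists at their strongest 6238 peaks, 29.9% of CS peaks overlapped an SC peak, and with SC peaks cut to the median CS width, a setting chosen after seeing the data, 24.9%. In the full lists, 1 CS peak stood on 3912 of these SC peaks, a pair on 651 and 3 or more on 87. The overlap ran strongly by place. In the authors' region classes, SC peaks were overlapped at 30.5% of proximal promoters, 19.5% of promoters within 1 kb, 9.89% of promoters within 3 kb, 9.40% of intergenic sites and 5.64% of gene bodies. From the CS side, 94.7%, 89.7%, 63.4%, 70.5% and 65.1% of the peaks in the same classes lay on an SC peak. Of the 756 CS peaks without an SC peak, 431 (57.0%) lay on an SS peak, 161 (21.3%) on a CC peak and 240 (31.7%) on neither, and 51.1% of them were promoter peaks against 85.8% of the CS peaks on SC.

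At the level of genes, 3802 of 12583 SC promoter genes were held, a background share of 30.2% (29.4 to 31.0) against which the groups below are read. These make up 88.2% of the 4311 CS promoter genes. The CS and SC promoter peaks overlapped for 3631 of them, and for 171 they did not. Of the 8781 SC genes not held by name, 280 had a CS peak on their SC promoter peak that carried another name or lay farther out, which left 8501 with neither. A total of 509 CS genes had no SC promoter peak of their name, and 198 of them (38.9%) had an SS promoter peak. Of the 509, 358 lay on an SC peak all the same, which left 151 with no SC peak at all, a background share of 3.50% of CS promoter genes. Protein-coding SC genes were held in 31.7% of cases and other gene types in 18.5%. By chromosome the share ran from 26.4% on chromosome 1 to 37.8% on chromosome 13. At the edge of the promoter window, 13 of 105 SC peaks 901 to 1000 bp from a start site were overlapped (median fold enrichment 3.67), and 7 of 92 at 1001 to 1100 bp (median 4.26).

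Genes held in CS were also more often marked in the other lists. An SS promoter peak of the same name was present for 97.6% of held genes and 91.3% of genes not held. Read from SC, 31.6% of the genes with an SS promoter peak were held, and 10.8% of the 853 genes without one (92 genes). In the weakest of the 5 SC strength classes defined below, where 15.2% were held, 81.9% of genes had an SS promoter peak. In the other classes 93.4% to 97.7% had one, and the part of SC strength in this contrast was not tested. A CC promoter peak was present for 42.7% of held genes and 15.8% of the rest. CS and CC are both short lists of narrow peaks, and how far this shared property enters the last figures was not tested.

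The strength of the SC peak did not order the genes simply. SC promoter genes form 2 populations by fold enrichment, with 1834 genes at 4 to 5, a trough of 573 at 7 to 8 and a second crest of 951 at 11 to 12. The genes were sorted into 5 equal strength classes by their strongest SC promoter peak, from class 1 (fold enrichment 2.04 to 4.36) to class 5 (from 11.6 up). In class 1, 15.2% were held, in class 2 39.2%, in class 3 41.0%, in class 4 25.3% and in class 5 30.3%. In 20 equal groups the share climbed from 10.0% (7.77 to 12.6) in the weakest to 49.1% (45.2 to 53.1) in the group at a fold enrichment of 5.72 to 6.11. It stood at 26.1% in the group that starts at 7.48, at 24.8% in that from 10.3 and at 28.7% in the strongest. Of the genes in classes 4 and 5, which hold the upper crest, 1399 of 5033 were held (27.8%, 26.6 to 29.1), and 2403 of 7550 in classes 1 to 3 (31.8%, 30.8 to 32.9). The difference between class 5 and class 4, 4.96 percentage points (2.45 to 7.45), turned to -3.62 (-7.45 to 0.229) when the SC list was shortened to its strongest 6238 peaks, which leaves other genes in the classes.

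**Figure D1:**
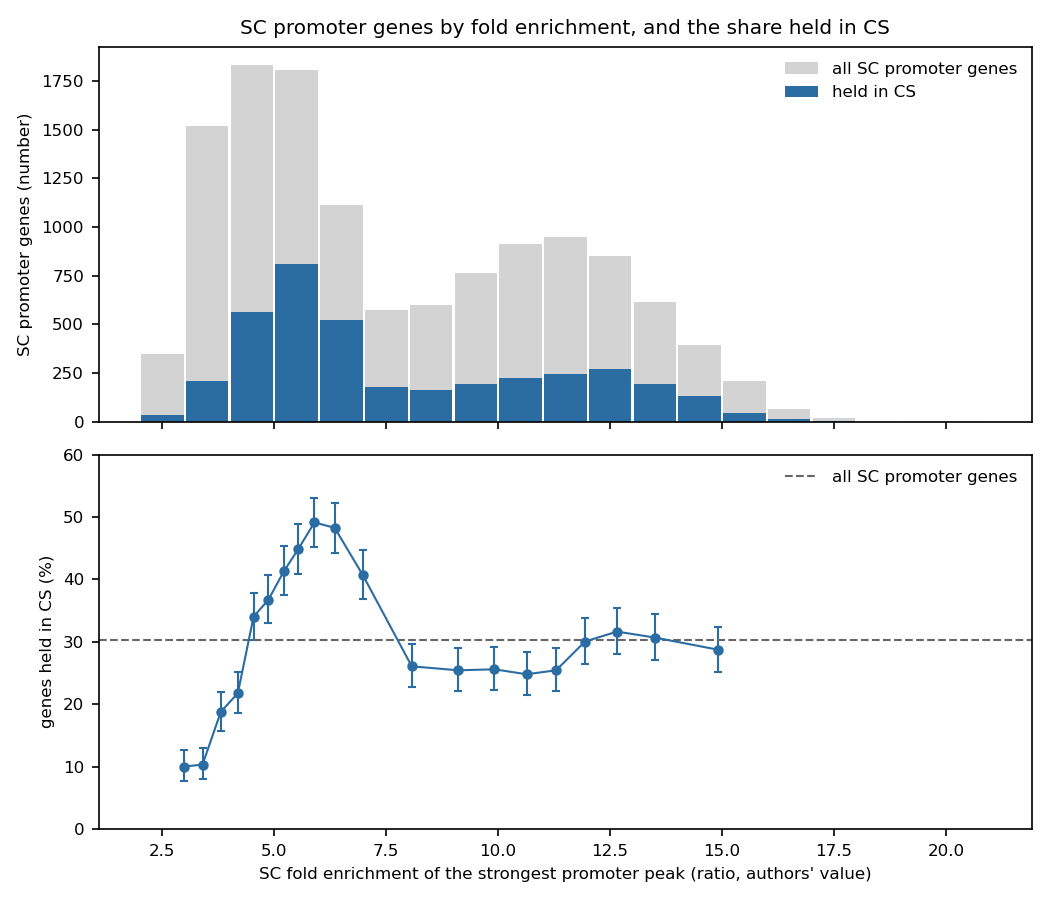
Upper panel, number of SC promoter genes (grey) and of those held in CS (blue) in steps of 1 of SC fold enrichment. Lower panel, percent held in 20 equal groups of SC promoter genes at their median fold enrichment, with 95% exact binomial intervals and the share over all genes, 30.2%, dashed. The share peaks at 49.1% in the group at a fold enrichment of 5.72 to 6.11 and stays between 24.8% and 31.6% over the second crest.

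Genes with wider SC peaks were held more often at like strength. Each class was split into 3 equal groups by the width of the SC peak. In class 5, 17.5% (15.0 to 20.3) of the genes with narrow SC peaks were held, 30.9% of those in between and 42.4% (39.1 to 45.9) of those with wide peaks, whose median width was 1088 bp. In class 4 the shares were 16.3%, 27.0% and 32.7%, and in class 1 they were 10.7%, 14.4% and 20.5%. Class 3 did not keep this order, with 31.9%, 48.5% and 42.7%. A wider peak offers more bases for a 1 bp overlap. The held call rests on gene names and the promoter window, and the CS and SC promoter peaks overlapped for 3631 of the 3802 held genes. How far width itself enters was not tested. CS fold enrichment did not follow SC strength: its median for held genes was 4.67, 4.71, 4.82, 4.68 and 4.68 from class 1 to class 5. CS values are nearly discrete, with 1727 of 5091 CS promoter peaks (33.9%) at only 5 values between 4.02 and 5.35 and 95.8% of all below 6.

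The middles of CS promoter peaks were more spread around the start site than those of SC promoter peaks. The middle of an SC promoter peak lay within 100 bp of the TSS in 46.6% of peaks, and that of a CS peak in 20.1%. The stretch from -500 to -200 bp held 25.4% of CS and 8.51% of SC middles, and that from 100 to 300 bp 25.7% and 23.9%. For genes of strength class 4 the CS peaks leaned upstream, with a median position of -157 bp and 59.5% upstream of the TSS, whereas over all CS promoter peaks the median was +17 bp and 48.2% lay upstream. Among 4285 pairs of overlapping CS and SC promoter peaks of the same gene, 93.9% of CS peaks lay wholly inside the SC peak. CS peaks covered a median of 13.1% of the SC peak, and their middles were a median of 222 bp apart. Of the 536 SC peaks with 2 or more CS peaks of the same gene, 313 (58.4%) had CS middles on both sides of the TSS, a median of 426 bp apart (quartiles 304 and 604). In steps of 50 bp, CS middles were densest at 50 to 100 bp (7.46%), with a second crest at -300 to -250 bp (5.64%). Between these crests they were sparsest at -150 to -100 bp (3.28%). SC promoter peaks had a median width of 902 bp, against 111 bp in CS. An SC peak of that width centred on the TSS also spans both flanks.

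**Figure D2:**
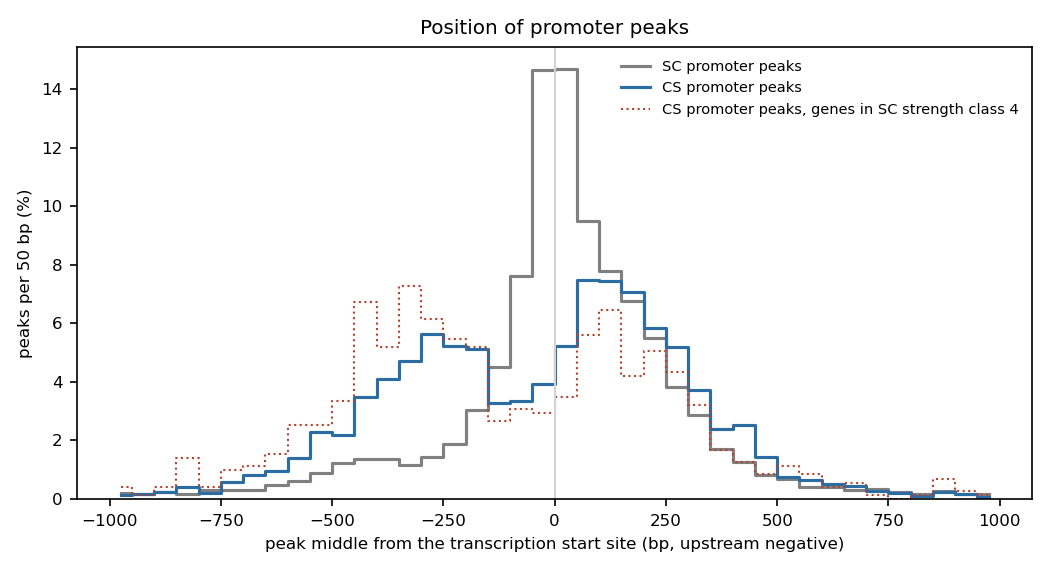
Percent of promoter peaks per 50 bp by the position of the peak middle relative to the TSS (bp, upstream negative), for SC (grey), CS (blue) and CS peaks of genes in strength class 4 (dotted red). SC middles centre on the start site (46.6% within 100 bp) while CS middles form crests on both sides of it (20.1% within 100 bp).

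General markers of medium spiny neurons had SC promoter peaks and no CS promoter peak. The gene lists used here were chosen with earlier results of these data known, so their counts describe these lists and test nothing. None of the 11 SC promoter genes that mark medium spiny neurons in general was held (0%, 0 to 28.5). Among them were Gnal, the G protein subunit that couples dopamine receptors to adenylyl cyclase, at an SC fold enrichment of 14.3, the transcription factor Foxp1 at 11.5, the small G protein Rasd2 at 8.96 and the phosphodiesterase Pde10a at 7.33. None of 5 D1 markers was held (0%, 0 to 52.2), with Ebf1 at 14.4 and Isl1 at 12.9, both transcription factors, and Tac1, the substance P precursor, at 3.79. None of 4 D2 markers was held either (0%, 0 to 60.2), and with so few genes both intervals include the background. Drd2, the D2 receptor, had an SC peak at chr9:49340157-49340883 with a fold enrichment of 13.6 and an SS peak of 10.9, and Penk, the enkephalin precursor, had 11.4 and 7.65. Drd1, Pdyn and Bdnf had no promoter peak in either list and an SS peak of 3.76, 3.48 and 3.49. SC promoter peaks were thus carried by 5 of 8 D1 markers, 4 of 7 D2 markers and 11 of 12 general markers, and none of these genes had a CS promoter peak. Of the general markers, Rgs9, Meis2, Arpp21 and Ppp1r1b were in strength class 1, where 15.2% of all SC promoter genes were held.

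Markers of other cells were too few to read. None of 5 interneuron, 3 astrocyte, 4 oligodendrocyte and 1 precursor gene was held. Of 3 endothelial genes, Esam (SC 3.64, CS 5.02), an adhesion molecule, and Kdr (SC 3.30, CS 4.69), a receptor for VEGF, were held. In tissue chromatin a change in the make-up of cells and a change of the mark within cells cannot be told apart.

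Signalling genes tied to dopamine and to neuronal activity were held seldom. Of 28 immediate early genes with an SC promoter peak, 3 were held (10.7%, 2.27 to 28.2): Fosb, a Fos-family factor whose product accumulates with repeated cocaine, with SC 4.22 and CS 4.95, Klf6 with SC 5.13 and CS 3.82, and Ier3 with SC 3.33 and CS 3.77. The Fosb peaks lay at chr7:19310003-19310847 in SC and at -120 bp from the TSS in CS. All 9 immediate early genes in classes 4 and 5 were without a CS promoter peak, among them Nr4a2, an orphan nuclear receptor, at 14.3, and Ier5 and Dusp14, a phosphatase, both at 12.4. Egr1 (7.84), Nr4a1 (5.89), Arc (4.64), Fos (3.04) and Junb (2.60) were not held either.

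Of 26 dopamine and cAMP signalling genes, 3 were held (11.5%, 2.45 to 30.15). They were Pde4d, a cAMP phosphodiesterase (SC 10.7, CS 4.66), Prkacb, a catalytic subunit of protein kinase A (SC 8.85, CS 3.68), and Ddc, which makes dopamine from its precursor (SC 3.76, CS 4.69). Adcy3, an adenylyl cyclase, at 14.3 and Prkar1b, a regulatory subunit of protein kinase A, at 12.9 were not. Of 32 MAPK and CREB pathway genes, 4 were held (12.5%, 3.51 to 29.0), among them the kinase gene Rps6ka1 (10.8) and the transcription factors Crem (10.7) and Srf (9.20). Creb1 at 7.38 was not held, nor were the kinase genes Braf at 12.7 and Map2k2 at 13.7. When a CS peak of any name on the SC promoter peak also counted, the interval of this list no longer lay below the background, and Hras, a Ras GTPase at 12.6, was the gene gained.

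Channel and axon guidance genes were seldom held, and receptor and synaptic genes had low counts whose intervals include 30.2%. Of 62 potassium channel genes 8 were held (12.9%, 5.74 to 23.9), and of 31 sodium, calcium and HCN channel genes 3 (9.68%, 2.04 to 25.8). Kcnk6, a leak channel, was held at SC 14.8 and CS 4.02, as was Cacna1a, the P/Q-type calcium channel, at SC 10.8 and CS 5.02. Kcns3 at 16.8 and Cacnb4 at 14.2 were not. Glutamate receptor subunits gave 2 of 21 (9.52%, 1.17 to 30.4), which were Grin2d (SC 12.6, CS 5.20) and Gria4 (SC 4.13, CS 4.13), and GABA receptor and synthesis genes 2 of 16 (12.5%, 1.55 to 38.3), among them Abat (SC 4.28), an enzyme of GABA breakdown. Presynaptic release genes gave 5 of 32 (15.6%, 5.28 to 32.8), all 5 in classes 1 to 3 and none of the 14 in classes 4 and 5, where the active zone genes Unc13b (15.8) and Erc2 (15.1) stood. The 5 were Cplx1, Rab3b, Rims2, Stx1a and Syn3, at SC values of 4.43 to 6.85. Postsynaptic scaffold and adhesion genes gave 4 of 26 (15.4%, 4.36 to 34.9), among them Dlgap4 (SC 10.3), Dlgap3 and Pick1, and without Shank1 (12.5) and Homer1 (9.52). Axon guidance genes gave 9 of 56 (16.1%, 7.62 to 28.3), with the semaphorins Sema3c (SC 17.3, CS 5.17) and Sema4f (14.9) held and the ephrin receptor Ephb3 (16.0) and the netrin Ntn1 (15.7) not held.

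Developmental regulators had strong SC peaks and few CS peaks. Of 85 genes of the Fox, Sox, Pou, Pax, Tbx, Lhx and related families 8 were held (9.41%, 4.15 to 17.7), and of 15 Hox genes 1, Hoxa7 (SC 6.69, CS 4.82). The held members include forkhead genes known for wide expression, such as Foxn3 (15.0), Foxj2 (11.4) and Foxk1 (11.2), and Pou3f2 (12.5), a factor of cortical and hypothalamic neurons. Those not held include Pou4f2 (17.9), a factor of retinal ganglion cells, Foxi3 (17.3), Pax1 (15.8) and Hoxd1 (16.1). Of 59 small nucleolar and micro RNA genes, matched by name prefix, 8 were held (13.6%, 6.04 to 24.98).

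Genes of cilia and centrosomes, C2H2 zinc fingers, replication and repair, and splicing were held more often than the background. The list of cilium and centrosome genes had the highest share, 36 of 57 (63.2%, 49.3 to 75.6), with 26 of 41 in classes 1 to 3 and 10 of 16 in classes 4 and 5. It includes Cep131 (SC 14.6, CS 4.68), a satellite protein of centrosomes, Cep78 (13.8, CS 5.00), Ift88 (13.1, CS 4.14), a carrier of transport along cilia, and Bbs7 (6.86, CS 4.92). Bbs4 (13.9), also ciliary, was not held. C2H2 zinc finger genes, many of them repressors of transposons, followed with 154 of 321 (48.0%, 42.4 to 53.6). In classes 1 to 3, 131 of 243 of them were held and in classes 4 and 5, 23 of 78, against 31.8% and 27.8% of all genes. Zfp638 (SC 14.9, CS 5.02) and Zfp422 (13.9, CS 5.76) were held, Zfp541 (15.3) and Zfp281 (13.5) were not.

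DNA replication and repair genes gave 32 of 66 (48.5%, 36.0 to 61.1). Mcm9, a helicase of recombination repair, had the strongest SC peak of the named genes with an overlapping CS peak of the same name (SC 17.4, CS 4.44). Lig3 (13.6), a ligase, Msh6 (12.2), a mismatch repair protein, and Brca2, of recombination repair, were held, while the polymerase gene Polg (13.3) was not. Genes of the spliceosome and RNA-binding proteins gave 46 of 114 (40.4%, 31.3 to 49.9), with the helicase Dhx36 (15.8) and the splicing factor Srsf4 (11.8) held. Of the other upkeep lists, translation factors and tRNA synthetases (30 of 74), Rab GTPases (19 of 45), proteasome subunits (15 of 33), mitochondrial import (10 of 22), the respiratory chain (27 of 74) and both kinds of ribosomal protein (21 of 60 and 24 of 64) lay above the background with intervals that include it. Solute carriers (64 of 206), histone-modifying enzymes (23 of 74) and ubiquitin enzymes (26 of 84) lay at it. Vesicle coat and sorting genes gave 37 of 106, general transcription factors with Mediator and RNA polymerase II 29 of 76, autophagy genes 7 of 25, cadherins and protocadherins 6 of 24, circadian clock genes 3 of 19, histone cluster genes 2 of 12 and olfactory receptors 0 of 3.

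Counted over the 37 lists with at least 5 SC promoter genes, 20 lay below 30.2% and 17 above. The interval lay wholly below for 9 lists and wholly above for 4, which are the cilium, zinc finger, replication and splicing lists. The lists differ in SC strength too. The 4 above had median SC fold enrichments of 5.60 to 6.36, in the range with the highest shares held. Of the 9 below, 6 had medians of 8.14 to 10.1. The other 3 below had 4.66 (small RNA genes), 6.21 (immediate early genes) and 6.86 (medium spiny neuron markers). The part of SC strength in the division was not tested. With both lists at 6238 peaks, of the 4 lists above only the cilium list kept an interval wholly above the background, and zinc finger genes stood at 29.7% (20.5 to 40.2) against 27.6%. With peaks limited to a q-value of 1e-05 in both lists, 4.62% of SC genes were held. No list's interval then lay wholly below the background, and those of the cilium and splicing lists no longer lay wholly above it. At that background the interval of a short list cannot lie wholly below: axon guidance genes, at 0% held, had an upper limit of 6.38%.

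**Figure D3:**
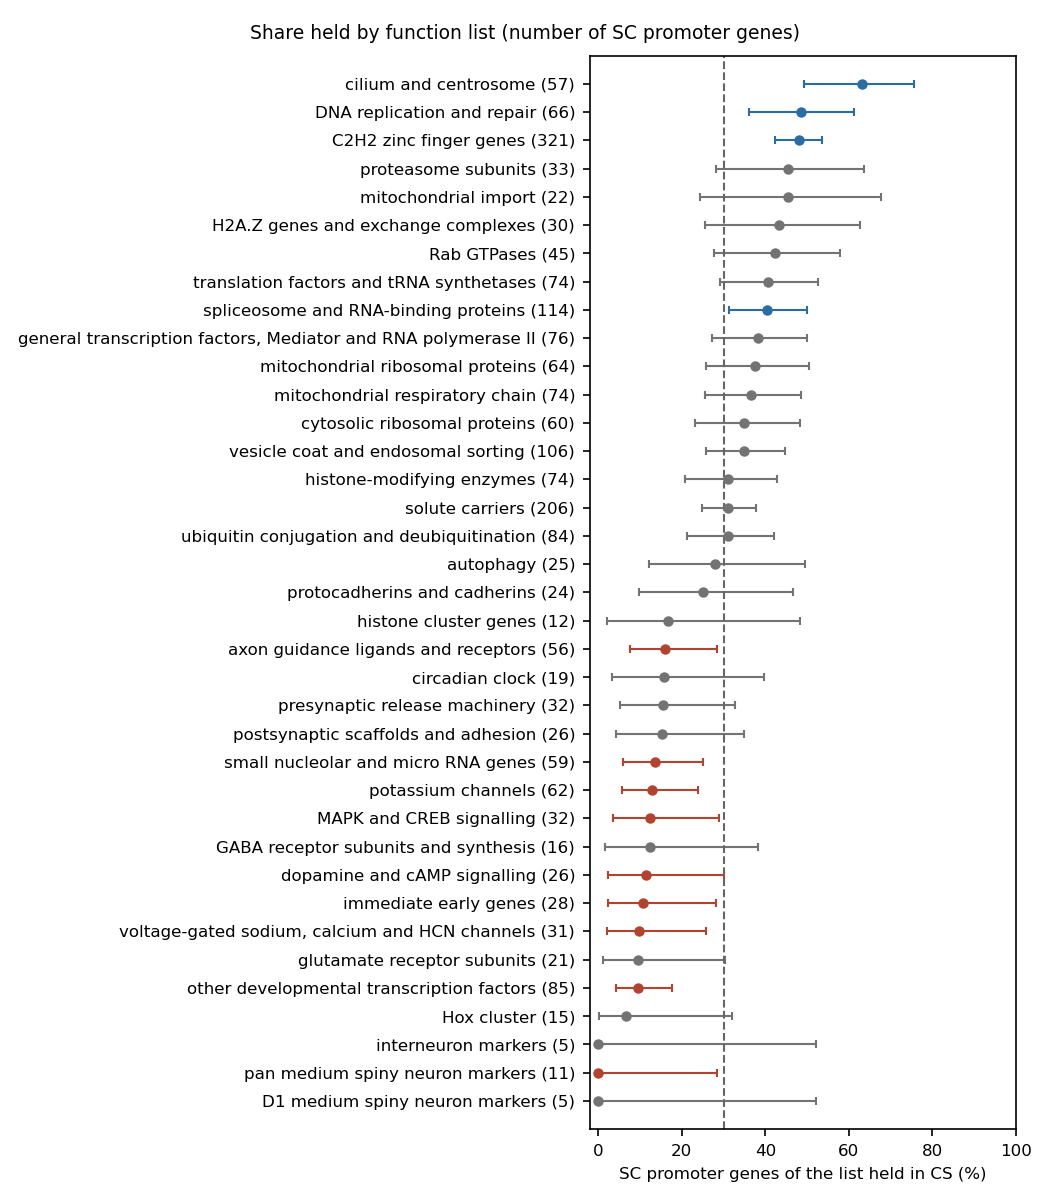
Percent of each list's SC promoter genes held in CS, with 95% exact binomial intervals, for the 37 lists with at least 5 such genes (number in parentheses). The dashed line is the share over all SC promoter genes, 30.2%. Red and blue mark the 9 and 4 lists whose interval lies wholly below or above it, with medium spiny neuron and channel lists toward the bottom and cilium, replication and zinc finger lists at the top.

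The genes of H2A.Z and of the complexes that place or remove it were held in part. Of 30 genes of the variant, its chaperones and its exchange complexes, 13 were held (43.3%, 25.5 to 62.6), an interval that includes the background. Anp32e, the chaperone that removes H2A.Z, had an SC peak at chr3:95929470-95930468 with a fold enrichment of 14.3. Of its 2 CS promoter peaks, that of 4.55 lay at -270 bp from the start site assigned to it, which differs from that of the SC peak. Srcap, the ATPase of a complex that inserts the variant, had 9.74 in SC and 4.35 in CS, and Kat5, the acetyltransferase of the complex with EP400, had 6.43 and 6.36. Ep400 itself (14.6), the INO80 subunit gene Actr5 (15.2) and both genes of the variant, H2afv (14.0) and H2afz (3.73), had no CS promoter peak.

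The strongest SC promoters without any CS peak were of mixed kind. The alanine- and arginine-rich protein gene Aard led the genes that the naming rule admits (chr15:52040115-52040775, SC 19.1), and it had a CC promoter peak of 6.45. The strongest SC promoter gene of all (20.8) has a provisional name, is skipped by that rule and was not held. Next came Bnc2 (18.3), a zinc finger protein, Erich2 (18.2), Ikzf3 (18.2), a lymphoid factor, a gene with a clone name (18.0), Pou4f2 (17.9), Chrna5 (17.7), a nicotinic receptor subunit, Lpar3 (17.6), a receptor for lysophosphatidic acid, Foxi3 (17.3) and Lrrc59 (17.2), whose promoter is printed above. All 10 had an SS promoter peak, at 9.29 to 13.2, and none but Aard a CC promoter peak.

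The strongest SC promoters held by an overlapping CS peak reached nearly the same SC values. After Mcm9 came Sema3c (17.3), Cdkn2a (17.1), which encodes cell-cycle inhibitors, Ext2 (17.0), an enzyme of heparan sulfate synthesis, and Cftr (16.9), a chloride channel. Arhgap22 (16.7), Rarres1 (16.6), Ano4 (16.5), Mreg (16.5) and Lrrc36 (16.4) followed. Their CS fold enrichments ran from 4.02 to 5.64, and Cdkn2a (4.90) and Rarres1 (4.14) also had a CC peak. In SC strength the 2 sets adjoin, with 19.1 to 17.2 for those without and 17.4 to 16.4 for those with a CS peak.

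Some held genes carry the CS peak beside the SC peak and not on it. The 5 strongest of the 171 were Vash2 (SC 16.2), an enzyme that trims tubulin, Mtfr1 (15.8), Apcdd1 (15.7), an inhibitor of Wnt signalling, Trpc1 (15.1), a cation channel, and Ripk1 (14.7), a kinase of cell death. Their SC middles lay between -73 and 235 bp from the TSS, and their CS middles at 428, 356, -386, -450 and -365 bp. Each value is taken from the start site assigned to that peak. For Mtfr1, Trpc1 and Ripk1 the start sites differ between the CS and the SC peak, so their values do not give the distance between the peaks. In Ripk1 the CS peak ended where the SC peak began, at position 34002056 of chromosome 13.

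Among genes of middle SC strength, base composition went with being held, and it also changed with SC strength there. The promoter of 8111 of 9773 protein-coding SC genes (83.0%) could be matched to a RefSeq window of 250 bases before to 50 after the start site, outside chromosomes 8, 15 and 18, where under 70% matched. Median GC content was 53.0% over all 29018 RefSeq promoters of these chromosomes, 63.0% over SC promoter genes, 61.7% over held and 63.7% over other SC genes. In strength class 3 it was 59.0% for the 738 held and 63.3% for the 959 others. In classes 4 and 5, where medians were 69.7% and 66.7%, held genes and others differed by less than 1 point. From the lowest to the highest of 5 equal GC classes, the share held in strength class 3 was 57.1%, 49.9%, 42.2%, 35.7% and 23.9%, with intervals of 52.3 to 61.8 at the low and 19.1 to 29.4 at the high end. In strength class 5 the shares were 38.9%, 32.6%, 32.8%, 30.4% and 29.3%, and in class 4 they lay between 26.4% and 31.0%. Class 1 is not described, since 79.8% of its genes matched. GC content can also enter sequencing and peak calling, and its part in these shares was not tested.

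**Figure D4:**
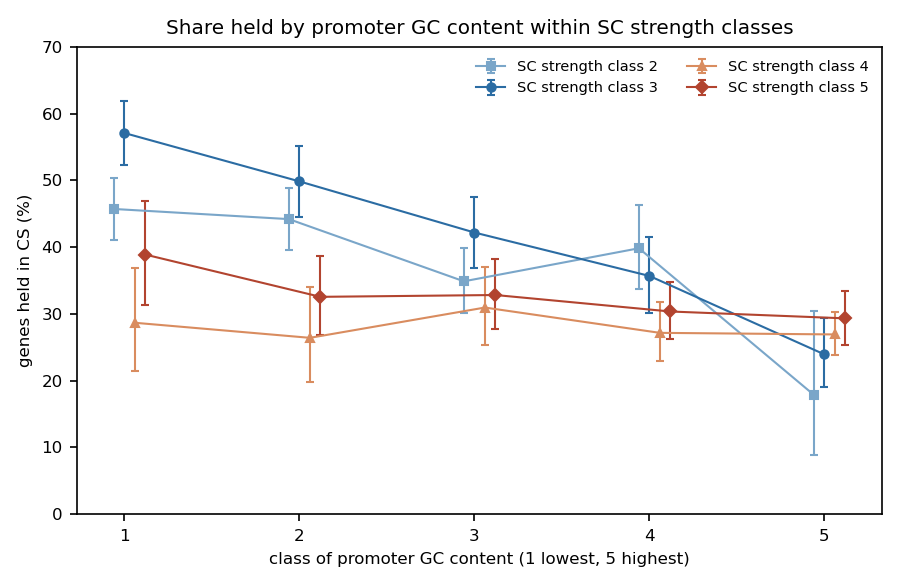
Percent of protein-coding SC promoter genes held in CS in 5 equal classes of promoter GC content, for SC strength classes 2 to 5, with 95% exact binomial intervals. The line of class 3 descends from 57.1% to 23.9%, while those of classes 4 and 5 stay within 26.4% to 38.9%.

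Short motifs were counted in the same windows on both strands. The ETS-family motif CCGGAAGT occurred in 10.7% (9.57 to 11.96) of held and 7.06% (6.396 to 7.77) of other SC promoters, and in 3.94% of all RefSeq promoters. Of SC genes with this motif, 285 of 670 were held (42.5%, 38.8 to 46.4), and 31.9% of those without. The motif went with a higher share in classes 1 to 3 (44.7% against 34.0%), and in classes 4 and 5 the shares were 37.0% (30.0 to 44.4) and 29.3%. These shares pool classes of different SC strength, whose part was not tested. Within class 3 the motif was in 14.6% (12.2 to 17.4) of held and 8.97% (7.24 to 10.96) of other promoters. In class 2 it was in 13.7% (11.2 to 16.6) and 11.5% (9.51 to 13.6). The figures were 4.85% and 4.44% in class 4, and 8.21% and 5.16% in class 5. The SP and KLF motif GGGGCGGGG, itself rich in GC, was in 23.9% of held and 25.9% of other promoters, against 11.6% of all. The cAMP response element TGACGTCA, the site of CREB, was in 4.02% (3.31 to 4.84) and 3.19% (2.74 to 3.69), against 1.80%. TATAAA was in 5.45% and 6.05%, against 13.7%. The AP-1 motif TGANTCA, bound by Fos and Jun, was in 3.46% (2.80 to 4.23) and 4.02% (3.51 to 4.57), against 7.92%. The NRF1 core GCATGCGC was in 6.54% and 5.52% (2.70% of all), the E-box CACGTG in 10.8% and 10.4% (7.14%) and the ZNF143-related ACTACAA in 4.93% and 3.89% (3.33%). Of the motifs counted only the CpG lies within others, and a match of letters is no evidence of binding.

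The CS genes with no SC peak were mostly marked in the saline controls. Of the 151, 99 had an SS promoter peak of the same name, and 18 more had an SS peak on their CS peak. Together these are 117 (77.5%, against a background of 99.0% of all CS promoter genes). By list, 85 had SS and not CC, 32 both, 10 CC and not SS, and 24 neither. They are typed protein coding in 112 cases. Their SS peaks were of modest strength, with a median fold enrichment of 4.45 (quartiles 3.69 and 5.34), against 5.95 for held genes and 5.68 for all 13281 SS promoter genes. Their CS fold enrichment had a median of 4.46, against 4.68 for held genes. Their CS peaks lay mostly downstream of the TSS, at a median of +112 bp with 27.7% upstream. The CCAAT motif of NFY was in 43 of 82 matched promoters (52.4%, 41.1 to 63.6), against 38.2% of held and 37.2% of all RefSeq promoters. Among held genes of SC strength classes 2 to 5 its shares were 45.9%, 37.7%, 27.6% and 34.5%. The interval of the set includes the share of class 2. With 82 promoters it is too wide to decide whether the motif sets these genes apart from weaker held promoters. The other motifs counted are not given for this set.

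**Figure D5:**
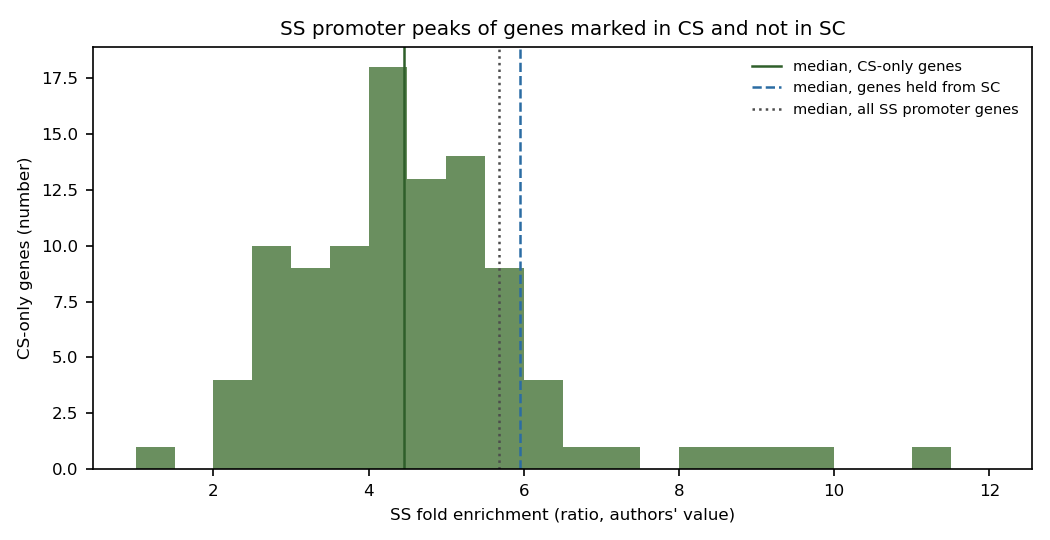
Number of CS promoter genes without an SC peak by the fold enrichment of their SS promoter peak, for the 99 that have one. The solid line is their median, 4.45, to the left of the medians of held genes (5.95, dashed) and of all SS promoter genes (5.68, dotted).

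The highest CS fold enrichment among named genes of this set was that of Snord37, a small nucleolar RNA gene (chr10:81178135-81178240, CS 9.71), which has no SS peak and a CC peak of 8.57. Next came Rangrf (CS 6.02, SS 4.64), a factor of the Ran GTPase, Lamtor2 (5.94, SS 2.91), a subunit of the Ragulator complex that recruits mTOR signalling to lysosomes, and Ccdc87 (5.90, SS 5.36). Edaradd (5.77, SS 5.94), an adaptor of ectodysplasin signalling, and Arhgap17 (5.70, SS 11.3), a GTPase activator, followed. Arhgap17 had by far the strongest SS peak among them, at a CS position of -442 bp. Hydin (5.64, SS 5.13), a protein of motile cilia, Nup43 (5.32, SS 4.38), a nuclear pore subunit, Srd5a1 (5.24, SS 5.13), a steroid reductase, Akr1c19 (5.23, SS 4.06) and Hspbap1 (5.21, SS 2.89) also had SS peaks of their name. Pih1d2, Etaa1os, Tm2d2 and Eif1a lay on an SS peak of another name or position. Of these 15 named genes, Snord37 alone had no SS peak. Genes with provisional names, which the naming rule skips, also stood above Rangrf. The strongest, at a CS fold enrichment of 24.4, had an SS peak (3.92) and a CC peak (26.3). Those at 13.0, 7.70, 7.36 and 6.69 had a CC peak and no SS peak. The next, at 6.20, had an SS peak (9.75) and no CC peak.

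Some kinds of gene recurred in the set and were picked out after their values were seen, so no count stands for them beyond the set. In the set as a whole, 77.5% had an SS and 27.8% a CC peak. The fixed lists hold fewer of its genes, 4 of DNA replication and repair and 1 of cilium and centrosome. Chromosome segregation and division genes number 8, among them Kif15 (CS 4.68, SS 6.18), a spindle motor, Kntc1 (CS 4.68, SS 4.35), a kinetochore protein, and Cenpl (CS 4.54, SS 5.11). All 8 had an SS peak and 5 a CC peak. Replication and repair genes number 10, all with an SS and 1 with a CC peak, among them Orc1 (CS 4.57, SS 8.08), of the origin recognition complex, Rad51ap1 (CS 5.02, SS 6.55) and Fanca (CS 3.97, SS 4.18). Genes of motile cilia number 9, all with an SS and 3 with a CC peak, among them Dnah11 (CS 5.00, SS 5.75), a dynein heavy chain, Cfap206 (CS 5.09, SS 4.26) and Rsph4a (CS 4.57, SS 4.12), a radial spoke protein.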

How the data were processed

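H2A.Z ChIP-seq of 12 samples in 4 conditions was analysed from 4 annotated peak lists, 1 per condition, that the authors deposited. The submitters' processing notes name mm10, cutadapt, HISAT, SAMtools and MACS2. The sources used here do not give peak-calling settings, control libraries or whether reads were pooled. Fold enrichment is a ratio over background as the authors deposited it, and the q-value of each peak, per the file headers, is on a linear scale. The gene, region class and signed distance are the authors' assignment, and the distance was checked to equal peak middle minus TSS within 1 bp for 100% of annotated SC and CS peaks. A shared promoter can take either gene's name. Sequencing depth was not analysed here, so the precision given is that of counting. Coordinates are printed as deposited, and overlaps with sequence windows read starts as counted from 0.

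Peaks were intersected with bedtools 2.31.1, shares and exact intervals computed in Python 3.11.15 with scipy 1.17.1, and the code checked on simulated lists. Condition came from sample titles. No test was run because no list holds values per sample. Members and gene lists were chosen with earlier results of these data known. The 44 lists were drawn by symbol or name prefix, and prefixes for Rab, Rad, Ttc, Eif and micro RNA names were narrowed after seeing them match genes of other function. Genes named are the 10 strongest SC genes without a CS peak, the 10 strongest held, the 15 strongest CS genes without an SC peak and up to 10 of these with an SS peak, the 5 strongest held at another position, up to 4 held and 4 not held per list by SC strength, and a fixed set of 24. Other genes named were chosen after their values were seen. Gm, Rik, pseudogene and most clone names were skipped, and a clone name that the rule let through is given without its name. A few genes that the rule would name are not reported here. Promoters were matched as the RefSeq window (GRCm38.p6) nearest the peak middle within 1000 bp.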

Additional observations from a re-analysis of the deposited data

How the results depend on the processing

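Of 33 recomputed values, 15 stayed within the original interval or within 1.5 times the original count. With peaks limited to a q-value of 1e-05 in both lists, 3.48% of SC peaks and 82.2% of CS peaks overlapped, 4.62% of SC genes were held, 18 CS genes had no SC peak, and strength class 5 exceeded class 4 by 0.956 points. With both lists at 6238 peaks, 26.1% of SC and 29.9% of CS peaks overlapped, 27.6% of genes were held, 2576 CS genes had no SC peak, and class 5 stood at -3.62 points against class 4, a change of sign whose cause was not tested. Including chromosomes X and Y gave 29.4% held, a 500 bp window 28.3%, and counting any overlapping CS peak 32.4%. An overlap of 50% of the shorter peak left 86.0% of CS peaks on SC. Ranking by q-value gave 8.89 points between classes 5 and 4. Chosen after seeing the data, cutting SC peaks to the median CS width gave 6.86% of SC and 24.9% of CS peaks, and keeping the genes with the widest of 3 peak groups in each class gave 9.65 points.

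Of 37 lists, 35 kept their side of the background when overlapping peaks of any name counted, 31 of 33 with lists of equal length and 30 of 36 with the q-value limit. No list's interval lay wholly below the background under the q-value limit, where most of the original 9 were too short for it. With equal lengths 2 of the original 9 did.

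No paired analysis was possible because the lists hold no values per sample. Leaving out each replicate in turn was not run for the same reason.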
